A study of Mus musculus with 24 samples.

Results

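Messenger RNA of 6 genes for pituitary hormones, Prl, Gh, Pomc, Cga, Tshb and Lhb, was measured in the forebrain of TgCRND8 mice, which carry a transgene for the amyloid precursor protein in its Swedish and Indiana mutant form (APPSwe/Ind), and of their non-transgenic littermates. These 6 are among 18193 genes on the array, and they are covered by 10 probe sets that map to 1 symbol each: 4 for Gh, 2 for Pomc and 1 for each of the others. The value of a gene is its probe set with the highest mean over the 24 arrays. The genes were chosen by their levels over these same arrays, with earlier results known, so levels and shared variation are a description without a test.

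The 6 groups were TgCRND8 and control mice at 70, 80 and 150 days of age, with 4 mice per group and 1 Affymetrix array per mouse. Mice are named below by the number that the labels give them within their group. The sources used here do not name the promoter of the transgene or the sex of the mice. The labels name 3 parts of the cut brain, of which the forebrain was used, and do not say where the pituitary went.

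Prl and Gh encode prolactin and growth hormone, made by lactotroph and somatotroph cells of the anterior pituitary. Pomc encodes the precursor that corticotrophs cut to ACTH, that melanotrophs of the intermediate lobe cut to alpha-MSH, and that neurons of the arcuate hypothalamus also make. Cga is the alpha subunit shared by thyrotropin, luteinizing hormone and follicle-stimulating hormone, and Tshb and Lhb are the beta subunits that give thyrotropin and luteinizing hormone their specificity. Apart from the Pomc neurons, adult forebrain is not known as a main source of these hormones.

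A few arrays set the spread of 4 of the 6 genes. Prl, Gh, Pomc and Cga were far above their usual level on TgCRND8 day 150 mouse 4, and Prl, Gh and Pomc were so on TgCRND8 day 70 mouse 1 and day 80 mouse 2. Tshb and Lhb stayed within 0.55 and 0.83 log2 over all 24 arrays. None of the 6 genes passed the test between genotypes at any age.

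The promoters of the genes that were high together are shown to compare the elements they hold. Sequences are from RefSeq, build GRCm38.p6, and span the 250 bases before a listed start, 5′ to 3′ on the gene's strand. For Prl, Pomc and Cga this is the start of the gene, while for Tshb and Lhb it is a start inside the gene as listed. A promoter entry was matched for 5 of the 6 genes, all but Gh. Capitals mark matches on either strand to the Pit-1 motif ATGNATA, the TATA box TATAAA and the SF-1 motif AAGGTCA. The Prl promoter lies at chr13:27057320-27057569, that of Pomc at chr12:3954695-3954944 and that of Cga at chr4:34893529-34893778, each on the plus strand.
Prl: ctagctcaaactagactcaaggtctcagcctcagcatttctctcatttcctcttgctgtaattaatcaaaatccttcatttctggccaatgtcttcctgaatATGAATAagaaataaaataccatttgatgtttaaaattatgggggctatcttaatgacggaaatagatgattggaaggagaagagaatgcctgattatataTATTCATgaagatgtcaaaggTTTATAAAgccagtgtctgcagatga
Pomc: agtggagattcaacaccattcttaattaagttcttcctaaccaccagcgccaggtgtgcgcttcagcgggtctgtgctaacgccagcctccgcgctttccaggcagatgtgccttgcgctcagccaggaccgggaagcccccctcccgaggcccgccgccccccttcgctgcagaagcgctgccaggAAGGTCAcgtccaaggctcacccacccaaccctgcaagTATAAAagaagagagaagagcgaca
Cga: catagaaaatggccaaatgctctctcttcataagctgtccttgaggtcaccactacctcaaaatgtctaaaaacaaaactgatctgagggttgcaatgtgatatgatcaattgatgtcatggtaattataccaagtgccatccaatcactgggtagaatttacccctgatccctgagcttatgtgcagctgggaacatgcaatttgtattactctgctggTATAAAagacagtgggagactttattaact

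Of these 3 promoters, that of Prl held Pit-1 matches, beginning 148 and 47 bases before the start. Pit-1 (Pou1f1) is the factor that switches on Prl and Gh in the pituitary, and its motif stood in 7.92% of 32851 promoters of the same length. All 3 held a TATA box, as did 12.4% of all promoters: it began 25 bases before the start in Pomc and 30 in Cga. In Prl 2 TATA box matches on opposite strands overlapped, beginning 26 and 24 bases before the start, and both lie in the last run of capitals. The Pomc promoter held 1 SF-1 match, 63 bases before the start, a motif found in 4.08% of promoters. Of the genes that varied little, Lhb also held 1 SF-1 match and 1 TATA box, while Tshb held 3 TATA box matches. Their stretches lie within the gene, at chr7:45420696-45420945 for Lhb and chr3:102782715-102782964 for Tshb. A PITX motif, TAATCC, and a cAMP response element, TGACGTCA, stood in 6.25% and 1.55% of all promoters and in 0 of the 5 matched here. A match is only a run of letters, and binding was not measured.

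All 24 arrays were alike in scale: their lower quartiles of log2 signal lay between 3.15 and 3.32 and their medians between 4.28 and 4.38, and any pair of arrays correlated at 0.988 or more over probe sets. Genes known from the adult forebrain were above the lower quartile, such as Slc17a7, the vesicular glutamate transporter of cortical neurons, at 7.54 to 8.20, and Ppp1r1b, a marker of striatal neurons, at 8.24 to 8.87. Of 5 such genes measured, the dimmest was Tbr1, at 4.59 to 5.59. The cerebellar genes Gabra6 and Pcp2 reached 4.58 and 6.27 on control day 150 mouse 4, where the medians over 24 arrays were 2.93 and 4.02. Cbln1 and Cbln3, also read as cerebellar genes, peaked on other arrays by their brightest probe sets. Cbln1 was at 6.30 to 7.19 on all arrays and highest on control day 70 mouse 4. Cbln3 was highest on TgCRND8 day 80 mouse 4, at 3.99, while another Cbln3 probe set was at least 1 log2 above its median on control day 150 mouse 4. Xist was high in 19 arrays (9.36 to 9.85) and low in 5 (3.07 to 3.50), the 5 being TgCRND8 day 80 mice 1 and 3, control day 70 mouse 4 and control day 80 mice 1 and 4. Eif2s3y, Kdm5d and Uty, genes of the Y chromosome, were higher in the 5 than in any of the 19. The 4 arrays highest in Prl were all among the 19, at 9.55 to 9.70 Xist, and the part of sex in the hormone values was not tested.

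Prolactin varied most. In TgCRND8 mice 1 to 4, Prl log2 signal was 5.78, 3.37, 3.82 and 4.77 at day 70, against 3.22, 3.25, 3.38 and 2.99 in control mice of that age. At day 80 it was 2.93, 5.50, 3.20 and 3.44 in TgCRND8 mice, against 3.07, 3.38, 3.30 and 3.26 in control mice. At day 150 it was 3.34, 3.10, 3.003 and 9.98 in TgCRND8 mice, against 3.84, 3.42, 3.76 and 3.06 in control mice. Thus 4 TgCRND8 arrays stood above every control array, and the remaining 8 TgCRND8 arrays lay between 2.93 and 3.82 and so within or just below the control range of 2.99 to 3.84. On the other 20 arrays its median was 3.28, close to the lower quartile of all probe sets, where a dim gene and an absent one cannot be told apart. The log2 differences given below for Prl are therefore differences in signal and are not read as fold changes of its RNA.

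**Figure D1:**
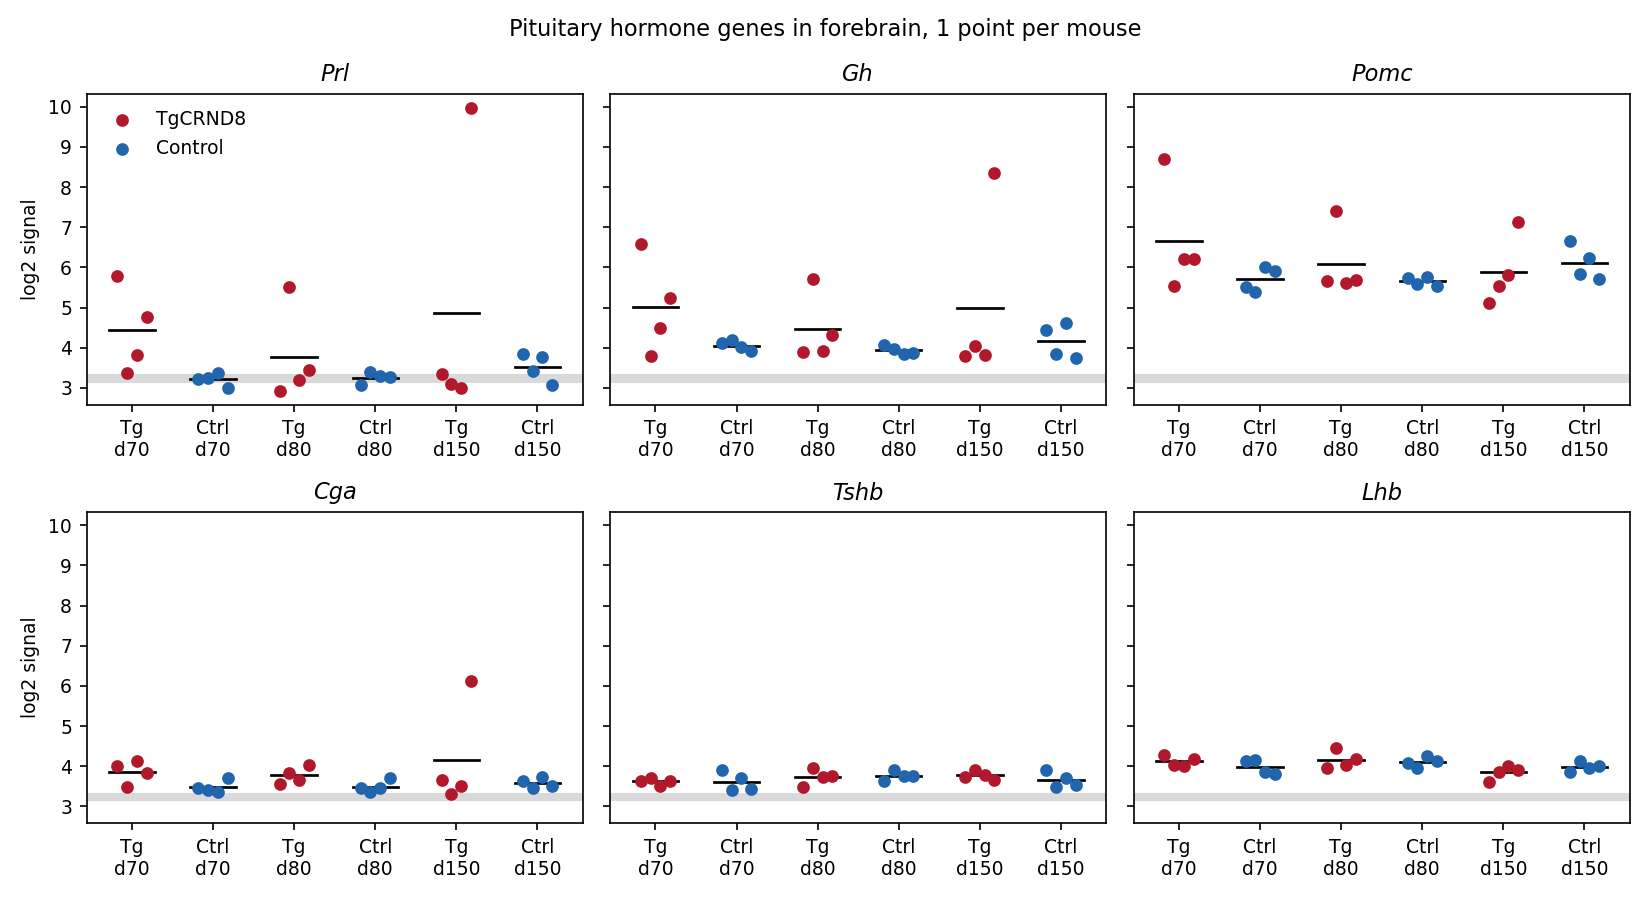
log2 signal of the 6 hormone genes (vertical axis) in each of the 6 groups (horizontal axis, TgCRND8 left of control at days 70, 80 and 150); each point is 1 mouse, the black line is the group mean and the grey band is the range of lower quartiles of the 24 arrays. Prl, Gh, Pomc and Cga have 1 or a few TgCRND8 points far above the rest, up to 9.98 for Prl, while Tshb and Lhb lie in narrow ranges.

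Growth hormone followed the same arrays. Gh was 6.57, 3.79, 4.48 and 5.23 in TgCRND8 mice 1 to 4 at day 70, against 4.11, 4.18, 4.01 and 3.91 in control mice. At day 80 it was 3.89, 5.72, 3.92 and 4.31 in TgCRND8 mice, against 4.06, 3.96, 3.85 and 3.86 in control mice. At day 150 it was 3.79, 4.04, 3.81 and 8.34 in TgCRND8 mice, against 4.44, 3.85, 4.62 and 3.73 in control mice. The same 4 TgCRND8 arrays led as for Prl, in the same order, and the groups overlapped at each age. All 4 Gh probe sets gave this order of the first 4 arrays, with 4.32 to 5.35 log2 above the median on TgCRND8 day 150 mouse 4, and the 3 dimmer ones correlated with the brightest at 0.979 to 0.983 over the 24 arrays. Those 3 carry the array maker's mark for probe sets in which some probes can match unrelated sequences too.

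Pomc had another order. Its log2 signal was 8.70, 5.54, 6.21 and 6.20 in TgCRND8 mice 1 to 4 at day 70, against 5.50, 5.40, 6.02 and 5.91 in control mice. At day 80 it was 5.65, 7.41, 5.61 and 5.69 in TgCRND8 mice, against 5.74, 5.59, 5.75 and 5.54 in control mice. At day 150 it was 5.10, 5.53, 5.82 and 7.12 in TgCRND8 mice, against 6.66, 5.83, 6.22 and 5.71 in control mice. Its highest array was therefore TgCRND8 day 70 mouse 1, at 7.75-fold above the median on the linear scale. TgCRND8 day 150 mouse 4, which led for Prl, was 2.60-fold above it. Unlike Prl, Pomc lay well above the lower quartile on every array, at 5.10 to 6.66 on the 20 arrays that were not highest in Prl. The second Pomc probe set also had TgCRND8 day 70 mouse 1 highest, at 7.55, and correlated with the first at 0.945, but its next 2 arrays stood the other way round, with 5.89 on TgCRND8 day 150 mouse 4 and 5.82 on TgCRND8 day 80 mouse 2. It carries the same array maker's mark as the dimmer Gh probe sets. In bulk RNA, more cells that make a hormone and more RNA per cell cannot be told apart.

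Cga, the shared alpha subunit, was high on 1 array. It was 4.00, 3.48, 4.14 and 3.83 in TgCRND8 mice 1 to 4 at day 70, against 3.46, 3.41, 3.37 and 3.71 in control mice. At day 80 it was 3.56, 3.83, 3.66 and 4.04 in TgCRND8 mice, against 3.46, 3.36, 3.46 and 3.70 in control mice. At day 150 it was 3.65, 3.31, 3.51 and 6.13 in TgCRND8 mice, against 3.62, 3.44, 3.72 and 3.49 in control mice. Other than TgCRND8 day 150 mouse 4, no array exceeded 4.14. On TgCRND8 day 70 mouse 1, where Pomc peaked, Cga was 0.41 log2 above its median.

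The beta subunits showed no such arrays. Tshb lay between 3.49 and 3.95 with a median of 3.72 in the 12 TgCRND8 mice, and between 3.41 and 3.91 with a median of 3.70 in the 12 control mice. Lhb lay between 3.61 and 4.44 with a median of 4.02 in the TgCRND8 mice, and between 3.80 and 4.25 with a median of 4.04 in the control mice. On TgCRND8 day 150 mouse 4, where Cga was highest, Tshb was 3.65 and Lhb 3.91, each slightly below its own median. Both genes peaked on TgCRND8 day 80 mouse 2, at 0.24 log2 above the median for Tshb and 0.42 for Lhb.

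Per array, the genes were also read as deviations from their own median over 24 arrays, which for Prl and Cga lies near the lower quartile, so that sizes of deviation are not compared between genes. TgCRND8 day 150 mouse 4 was above the median by 6.63 log2 for Prl, 4.32 for Gh, 2.54 for Cga and 1.38 for Pomc. TgCRND8 day 70 mouse 1 was above it by 2.43 for Prl, 2.54 for Gh and 2.95 for Pomc, and TgCRND8 day 80 mouse 2 by 2.15 for Prl, 1.69 for Gh and 1.66 for Pomc. TgCRND8 day 70 mouse 4 was above it by 1.42 for Prl, 1.21 for Gh and 0.46 for Pomc. Within a gene, the order of the first 2 of these arrays was not the same for each gene: TgCRND8 day 150 mouse 4 was above TgCRND8 day 70 mouse 1 by 4.20 log2 for Prl, 1.77 for Gh and 2.14 for Cga, and below it by 1.58 for Pomc (a difference of -1.58). The other 3 Gh probe sets gave 1.93 to 2.60 and the second Pomc probe set gave -1.66.

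**Figure D2:**
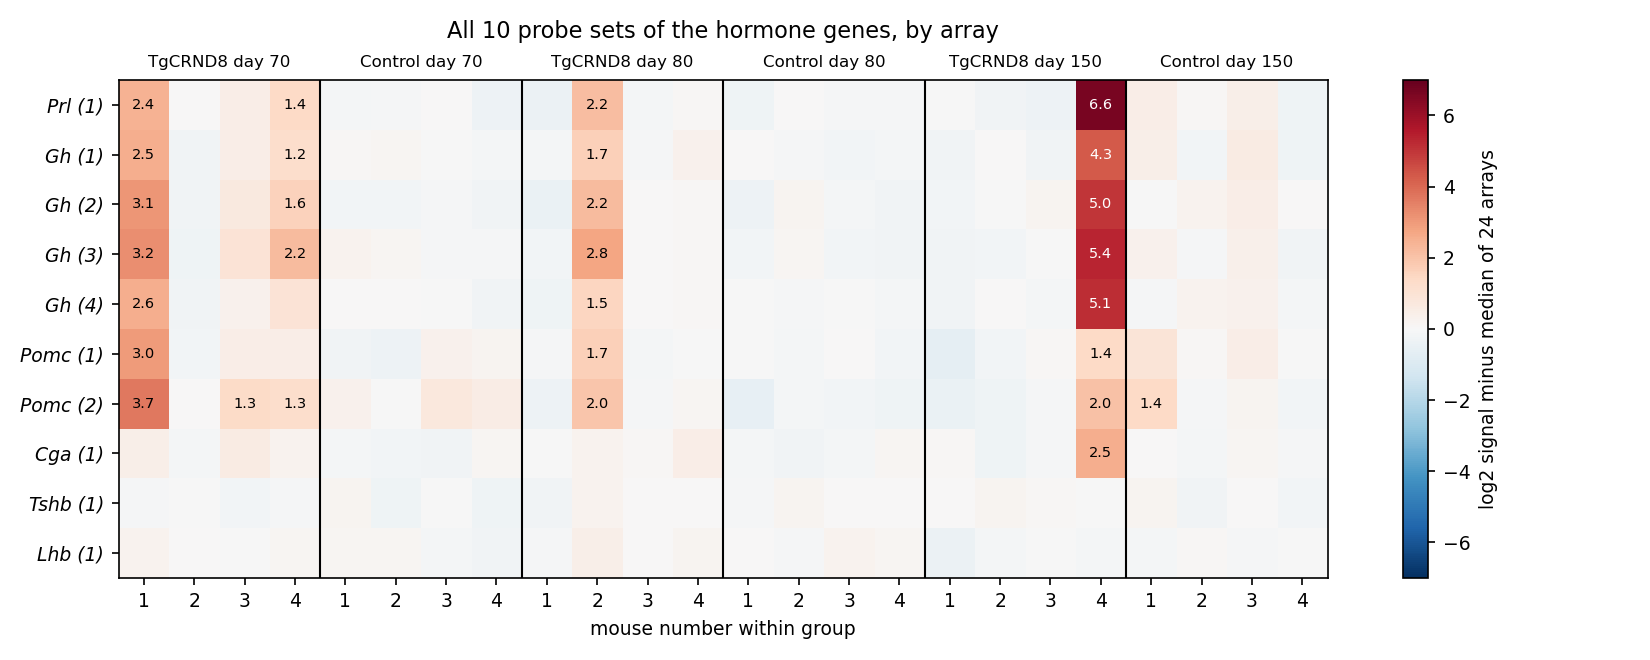
log2 signal minus the median of 24 arrays (colour) for all 10 probe sets of the hormone genes (rows, brightest probe set of a gene first) on each array (columns, by group and mouse number). Values of 1 or more are printed; they fall mainly on TgCRND8 day 150 mouse 4 and TgCRND8 day 70 mouse 1, day 70 mouse 4 and day 80 mouse 2, with 2 further cells for the second Pomc probe set on TgCRND8 day 70 mouse 3 and control day 150 mouse 1.

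On those arrays the hormone genes were nearly all that stood out. Of 45037 probe sets, 7 were at least 2 log2 above their own median on TgCRND8 day 150 mouse 4, and all 7 belonged to Prl, Gh, Cga or Pomc. The same held for 7 of 7 probe sets on TgCRND8 day 70 mouse 1, for 3 of 3 on TgCRND8 day 80 mouse 2 and for 1 of 1 on TgCRND8 day 70 mouse 4. On the other 20 arrays 0 to 7 probe sets passed this mark, and 0 of them belonged to the 6 genes. At 1 log2, 17 probe sets passed on TgCRND8 day 150 mouse 4, 8 of them hormone probe sets, and the others included Gfap and Cst7, genes of reactive astrocytes and microglia that also passed on TgCRND8 day 150 mice 1 to 3.

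A weaker form of the same pattern reached control mice. By the main probe set of each gene, the 7 arrays highest in Prl were also the 7 highest in Gh and in Pomc: the 4 above, TgCRND8 day 70 mouse 3, and control day 150 mice 1 and 3. The number 7 was chosen after the values were seen. Of the other 3 Gh probe sets, 1 gave the same 7 arrays and 2 gave 6 of them, as did the second Pomc probe set. On these last 3 arrays Prl was 0.47 log2 above its median in the TgCRND8 mouse, and 0.48 and 0.41 above it in the control mice. Pomc was above its median by 0.47 log2 in that TgCRND8 mouse and by 0.91 and 0.48 in the control mice. For Cga, 6 of its 7 highest arrays were among these 7, against 2 of 7 for Tshb and 3 of 7 for Lhb.

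Over all arrays the SD of log2 signal was 1.51 for Prl, 1.08 for Gh, 0.78 for Pomc and 0.56 for Cga, against a median of 0.14 for all genes. Ranked by SD among 18193 genes, Prl was 2nd, Gh 3rd, Pomc 5th and Cga 11th, with Xist at the top. Tshb and Lhb had SDs of 0.16 and 0.18, at ranks 5816 and 3695. The group means held 17.1% of the variance of Prl over all arrays, 17.0% for Gh, 19.3% for Pomc, 18.7% for Cga, 17.6% for Tshb and 36.5% for Lhb. With 6 groups of 4 mice, group means hold part of the variance even where no group differs, so these shares do not measure an effect of genotype or age. By genotype, the SD of Prl was 2.02 over the 12 TgCRND8 mice and 0.26 over the 12 control mice, that of Gh 1.42 and 0.26, that of Pomc 1.03 and 0.35, and that of Cga 0.74 and 0.13. Tshb had SDs of 0.14 in TgCRND8 mice and 0.18 in control mice, and Lhb 0.21 and 0.14. Over the 8 TgCRND8 mice left without the 4 highest in Prl, the SDs of Prl, Gh and Pomc were 0.28, 0.26 and 0.31, close to those of control mice, while that of Cga was 0.28, still above the 0.13 of control mice. Arrays were left out here by the outcome itself and in TgCRND8 mice alone, which lowers these SDs by construction. Their closeness to the SDs of control mice is therefore a description. The difference in SD between genotypes was not tested.

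Over single arrays, Prl and Gh varied most alike. Their Pearson correlation was 0.974 over 24 arrays (Spearman 0.686), 0.942 without TgCRND8 day 150 mouse 4 and TgCRND8 day 70 mouse 1, the 2 arrays farthest from the median of Prl, and 0.735 over the 20 arrays left without the 4 highest in Prl. Prl and Cga correlated at 0.911, which rested on 1 or 2 arrays: without the same 2 it was 0.482. For Prl and Pomc the correlation was 0.679 over all arrays, 0.804 without those 2 and 0.588 over the 20. Gh and Pomc gave 0.785, Gh and Cga 0.861, and Pomc and Cga 0.475. The 9 pairs with Tshb or Lhb lay between -0.09 and 0.40, and the highest of them, Pomc with Lhb, was -0.07 without the 2 arrays farthest in Pomc. Without TgCRND8 day 150 mouse 4 and TgCRND8 day 70 mouse 1, in contrast, Prl with Lhb went up to 0.496, against 0.143 with all arrays, and Gh with Lhb to 0.495, against 0.226. Over the 20 arrays left without the 4 highest in Prl these were -0.03 and 0.03. Points of such pairs share the array and its scaling. On deviations from group means Prl and Gh correlated at 0.975, a value in which TgCRND8 day 150 mouse 4 and the shared scaling remain. By Spearman over the 20 arrays, Prl correlated with Gh at 0.457 and with Pomc at 0.332.

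**Figure D3:**
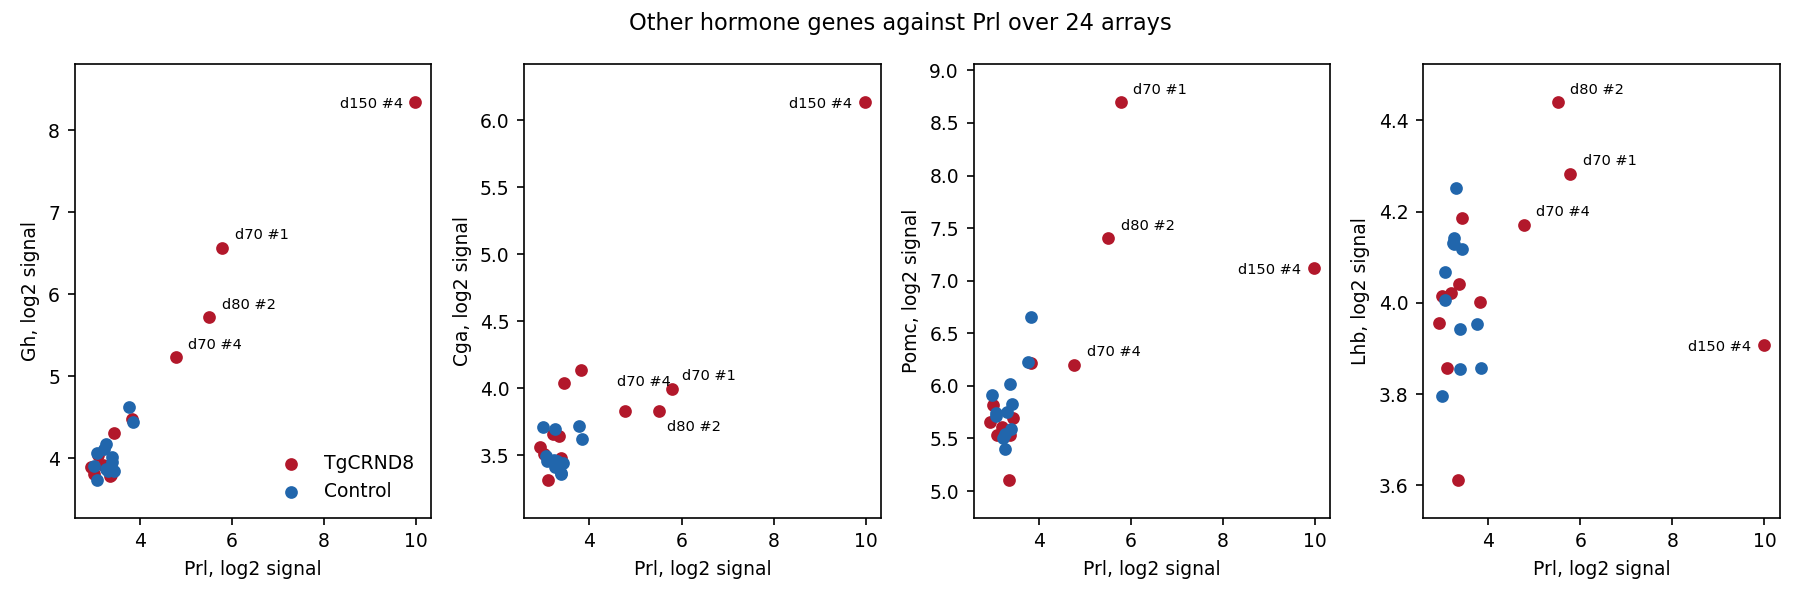
log2 signal of Gh, Cga, Pomc and Lhb (vertical axes, each with its own scale) against log2 signal of Prl (horizontal axis) over 24 arrays, 1 point per mouse, TgCRND8 in red and control in blue; the 4 arrays highest in Prl, all TgCRND8, carry their day and mouse number. Gh rises along with Prl across these 4, Cga is far up only on day 150 mouse 4, Pomc is highest on day 70 mouse 1, and Lhb keeps within 0.83 log2 over all arrays.

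No gene outside the 6 varied as closely with Prl as Gh or Cga did. The 5 most like Prl, by Pearson correlation over 24 arrays among 18187 genes, were Pabpc5 (0.68), Pramel6 (0.68), Rusf1 (0.67), Gm11342 (0.67) and B230369F24Rik (0.65). Each of these 5 ranged over at most 1.01 log2, against 7.05 log2 for Prl. The 5 most like Gh were Lcp1 (0.70), Ano9 (0.70), Pabpc5 (0.66), Fhod1 (0.66) and Gpat4 (0.65). Those most like Pomc were Ankrd55 (0.77), Lss (0.76), 4933402D24Rik (0.73), 2810004N23Rik (0.70) and Kcng4 (0.69), and those most like Cga were Rusf1 (0.77), Lcp1 (0.69), Cdyl2 (0.66), Gpat4 (0.65) and Pramel6 (0.64). Without the 2 arrays farthest from the median of Prl, the correlations of its 5 genes lay between 0.05 and 0.50. Tshb was most like Thada (0.75), Gm28453, Slc16a9, Chp2 and Egfbp2, and Lhb most like Neurl3 (0.82), Cxcl17, Gm5142, 5730488B01Rik and Hand2.

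Further genes of the pituitary varied little with Prl. Of 39 listed regulators, receptors and granule proteins 33 were measured, with a median correlation with Prl of 0.07, against 0.02 over all genes. 0 of the 33 correlated with Prl or Gh at 0.7 or more. The highest with Prl was Fshb, the beta subunit of follicle-stimulating hormone, at 0.47, though its signal kept between 2.58 and 3.004 on all arrays. Of the 33, 6 had their highest array among the 4 highest in Prl (18.2%, against 18% of all genes). On TgCRND8 day 150 mouse 4 alone 0 of the 33 peaked, beside 3.58% of all genes. The mean signal of the 33 on the 4 arrays was 5.17 to 5.29, against 5.09 to 5.26 on the other 20. This mean mixes genes bright on all arrays, such as Chgb with a median of 10.57, and genes dim on all, such as Six6 with 2.81. The part of pituitary tissue in the values of this list was not tested.

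Single genes of that list were read on the array highest in Prl. On TgCRND8 day 150 mouse 4, Pitx1, a factor of early pituitary formation, was 3.26 beside a median of 3.45, and Lhx3, a factor needed for most anterior pituitary cells, was 4.41 beside 4.14. Lhx3 was highest on TgCRND8 day 80 mouse 2, at 4.85. Ghrhr, the receptor that drives growth hormone release, was 4.26 on TgCRND8 day 150 mouse 4 beside a median of 4.14, Gnrhr, the receptor of gonadotrophs, 3.28 beside 3.13, and Trhr, the receptor of thyrotropin-releasing hormone, 5.32 beside 5.39. Pou1f1 was not analysed here.

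Other tissues near the forebrain were compared in the same way, by how many genes of each list had their highest array among the 4 highest in Prl, where 18% of all genes did. Genes of the hypothalamus, where Pomc neurons lie, did so for 8 of 21 measured (38.1%). Of these, 6, Oxt, Trh and Pmch among them, peaked on TgCRND8 day 80 mouse 2, for which the share of all genes is not given here. On TgCRND8 day 150 mouse 4, 0 peaked, beside 3.58% of all genes. The mean signal of the 21 was 5.20 to 5.46 on the 4 arrays, against 5.09 to 5.44 on the other 20. The median correlation of this list with Prl was 0.06. Pineal and retina genes did so for 4 of 12, olfactory bulb genes for 3 of 11, sensory ganglion genes for 2 of 11, meningeal genes for 2 of 18 and choroid plexus genes for 1 of 16, while the counts were 0 of 16 for cerebellum and brainstem, 0 of 7 for blood and 0 of 10 for bone and muscle. 0 genes of any of these lists correlated with Prl or Gh at 0.7 or more. The part of these tissues in the hormone values was not tested.

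Receptors and targets of the hormones were read on the same arrays. Of 19 measured, 2 had their highest array among the 4 (10.5%, against 18% of all genes). Ghr, the growth hormone receptor, was 6.16 on TgCRND8 day 150 mouse 4, its highest array, beside a median of 5.89. Igf1, the growth factor induced by growth hormone, was 6.40 beside 6.33, and Socs2 and Cish, feedback inhibitors induced by this signal, were 6.39 beside 6.44 and 5.43 beside 5.43. Prlr was not analysed here.

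Between genotypes, group means of Prl were 4.44 ± 1.07 in TgCRND8 mice and 3.21 ± 0.16 in control mice at day 70, 3.77 ± 1.18 and 3.25 ± 0.13 at day 80, and 4.85 ± 3.42 and 3.52 ± 0.36 at day 150 (log2 signal, SD, n = 4 each). The limma differences were 1.23 ± 0.92, 0.52 ± 0.92 and 1.33 ± 0.92 log2 (SE), TgCRND8 minus control. None passed the test, with adjusted p of 0.9997, 0.9996 and 0.9995 by limma with Benjamini-Hochberg adjustment. The test compares means, while the medians of Prl differed by 1.06, 0.04 and -0.38 at the 3 ages.

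Gh, Pomc and Cga gave differences of the same kind. That of Gh was 0.97 ± 0.66 at day 70, 0.53 ± 0.66 at day 80 and 0.83 ± 0.66 at day 150 (log2, SE, limma). That of Pomc was 0.95 ± 0.47, 0.44 ± 0.47 and -0.21 ± 0.47, and that of Cga 0.37 ± 0.34, 0.28 ± 0.34 and 0.58 ± 0.34. Tshb and Lhb differed by at most 0.11 and 0.14 in size. At day 70, 3 of 4 TgCRND8 mice were above all 4 control mice for each of Prl, Gh, Pomc and Cga, and for Gh the remaining mouse was below all of them. In none of the hormone genes and at no age were the groups free of overlap. How often all genes on the array do the same is not given here. The overlap and the counts of mice above all control mice are therefore a description of these genes.

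By limma 0 of the 6 genes passed an adjusted p of 0.05 at day 70, where 0% of all genes passed, at day 80 (0%) and at day 150 (0.121%, or 22 genes). At an unadjusted p under 0.05 the counts were again 0 of 6 at each age, beside 591, 685 and 796 of all genes. This fit shares 1 estimate of spread over the 6 groups, TgCRND8 day 150 mouse 4 included. With only the 8 arrays compared in the fit, 3 of 6 had an unadjusted p under 0.05 at day 70 (Prl, Gh and Cga, beside 3.64% of all genes) and 1 of 6 at day 80 (Cga, beside 1.75%), while adjusted p stayed above 0.999. The genes were chosen by their levels on these same arrays, and Prl, Gh and Cga vary together, so these counts are a description. Of the 6, 6 were higher in TgCRND8 mice at day 70, 5 at day 80 and 4 at day 150, and the median difference over them was 0.66, 0.36 and 0.35 log2, against 0.00 over all genes at each age. These medians rest on the high arrays, which count in the differences of several genes at once.

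Leaving out the 4 arrays highest in Prl, a choice made after the values were seen and by the outcome itself, lowers the TgCRND8 means by construction. The differences of Prl were then 0.38 at day 70, -0.06 at day 80 and -0.37 at day 150, and those of Gh 0.09, 0.11 and -0.28. Those of Pomc were 0.17, 0.00 in size at day 80, and -0.62, and those of Cga 0.32, 0.26 and -0.08. 0 of 6 genes passed in this form also, where 0% of all genes passed at days 70 and 80 and 0.066% at day 150.

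**Figure D4:**
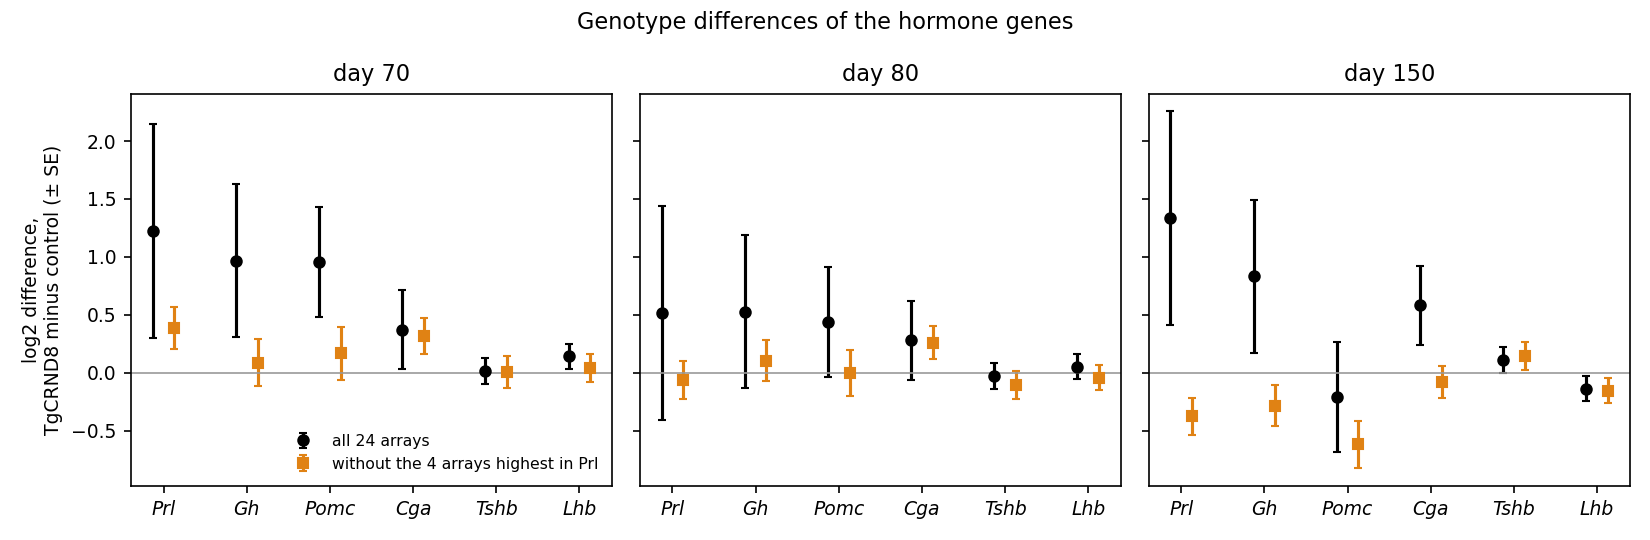
Difference in log2 signal, TgCRND8 minus control (vertical axis, limma estimate with bars of 1 SE), for the 6 hormone genes (horizontal axis) at days 70, 80 and 150, over all 24 arrays in black and without the 4 arrays highest in Prl in orange. With all arrays the bars of Prl span 0.92 log2 to either side; without the 4 arrays the differences of Prl, Gh and Cga at day 150 fall below 0.

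With age, 0 of the 6 genes passed in control mice at day 80 against day 70 (0% of all genes) or at day 150 against day 70 (0.022%), and 0 passed in TgCRND8 mice at day 80 against day 70 (0%) or at day 150 against day 70 (0.0879%). The differences were small in control mice, with medians over the 6 genes of 0.02 at day 80 and 0.10 at day 150. In TgCRND8 mice Pomc was lower at day 150 than at day 70 by 0.77 ± 0.47 log2 (SE), short of the threshold with an adjusted p of 0.9998 by limma, and without TgCRND8 day 70 mouse 1 the difference was -0.09. Lhb was the only one of the 6 with an unadjusted p under 0.05 in any of the 9 comparisons with all arrays in the fit: 3.85 ± 0.17 in TgCRND8 mice at day 150 and 4.12 ± 0.13 at day 70 (SD, n = 4 each), a difference of -0.28 ± 0.11 (adjusted p = 0.9998 by limma). In that comparison 481 of all genes (2.64%) had an unadjusted p under 0.05. Without TgCRND8 day 150 mouse 4 the count at that unadjusted level was 5 of 6 in the same comparison, all but Tshb and each with a negative difference, with Prl at -1.29 ± 0.45, beside 2.59% of all genes, and adjusted p was above 0.999 for each. Of the arrays left out in turn, this one is named for its high values. Leaving it out lowers the day 150 means of Prl, Gh, Pomc and Cga by construction, and these genes vary together, so the count is a description. At an unadjusted p under 0.05, 590 of all genes passed in control mice at day 80 and 1040 in TgCRND8 mice at day 80.

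The genotype difference was also compared between ages. 0 of 6 genes passed for day 80 minus day 70 (0% of all genes, with 481 at an unadjusted p under 0.05) or for day 150 minus day 70 (0.011%), and adjusted p for all 6 was 0.9998 in each by limma. The largest of these was Pomc, whose genotype difference at day 150 minus that at day 70 was -1.16 ± 0.67 log2 (SE). TgCRND8 day 70 mouse 1 and TgCRND8 day 150 mouse 4, the arrays highest in Pomc and in Prl, enter it on opposite sides. Without TgCRND8 day 150 mouse 4, 4 of 6 genes, Prl, Gh, Pomc and Cga, had an unadjusted p under 0.05 for day 150 minus day 70, beside 3.18% of all genes, and 0 of 6 passed after adjustment. Leaving out this array, chosen for its high values, lowers the day 150 means of those genes by construction, so this count too is a description.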

How the data were processed

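Forebrain RNA of 24 mice was hybridised to 1 array each, per the labels. The deposited values are log2 signals per probe set; the sources used here do not say how the authors normalized them, and they were used as given. Of 45101 probe sets 64 were controls; of the rest 34945 had 1 symbol in the platform annotation, 932 several and 9160 none, and those with several were left out. Each gene took its probe set with the highest mean, giving 18193 genes. Precision is limited by 4 mice per group.

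The 24 arrays were fitted together in limma with 1 mean per group (residual degrees of freedom 18, prior 7.47), and calls were made at 0.05 on p adjusted over all genes by Benjamini-Hochberg. On simulated arrays of the day 150 comparison of TgCRND8 and control, run on 18193 genes, 72% of 100 genes shifted by 0.5 log2 and 100% of 100 shifted by 1 were recovered, with 11 false calls among 183. The shifted genes were drawn at random, each with normal noise at its own within-group SD, which had a median of 0.14 over all genes. That SD was 1.55 for Prl, 1.11 for Gh, 0.79 for Pomc and 0.57 for Cga, so these rates do not hold for those genes.

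Members and lists were chosen with earlier results of these data known. Named were the 6 genes, the 5 genes most like each by Pearson correlation over arrays, up to 5 genes per list at a correlation of 0.7, and fixed pituitary, target and sex genes. Gabra6, Pcp2, Slc17a7, Ppp1r1b, Gfap, Cst7, Oxt, Trh, Pmch and the genes of the promoter comparison were added after the values were seen. Promoters came from RefSeq (GRCm38.p6). Alternatives were quantile normalization, median centring, a filter on dim genes, all or averaged probe sets, trend and robust settings, array weights, replicate block, Xist as covariate, a looser threshold, only the arrays compared, and each array left out. Tools were limma 3.58.1 under R 4.3.3 for tests, and Python 3.11.15 with matplotlib 3.10.9 for tables and plots.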

Additional observations from a re-analysis of the deposited data

Results flagged for a closer look

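In 4 of 36 combinations of gene and group, 1 mouse stood far from the other 3, by a gap to the nearest mouse of more than 0.829 of the group's range. Chance gives this in about 1 of 20 groups where genes are not chosen by their values; these were chosen by their levels on the same arrays and vary together, so the 4 are a description. In TgCRND8 mice of day 150, mouse 4 had 9.98 log2 signal for Prl, a gap of 6.64 to the nearest mouse, 8.34 for Gh, a gap of 4.31, and 6.13 for Cga, a gap of 2.49. In TgCRND8 mice of day 80, mouse 2 had 7.41 for Pomc, a gap of 1.71. The cause was not tested.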

How the results depend on the processing

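In each of the 9 comparisons 0 of the 6 hormone genes passed under any alternative run for it: 12 for every comparison, and leaving out each array of the groups compared in turn. The filter on the dimmest 40% of genes left only Pomc of the 6 in the test. Signs of differences that never passed changed as follows, TgCRND8 minus control in log2. At day 70 Tshb was -0.0051 after quantile normalization, -0.0368 with Xist as covariate, and -0.0499 to 0.114 with 1 array left out. With 1 array left out at day 80, Prl ranged from -0.0627 to 0.795, Pomc from -0.0022 to 0.597, Lhb from -0.0430 to 0.118 and Tshb from -0.101 to 0.0534; the lowest value of each came without TgCRND8 mouse 2 and equals that without the 4 arrays highest in Prl. At day 150 Prl ranged from -0.375 to 1.95, Gh from -0.284 to 1.24, Cga from -0.0800 to 0.860 and Pomc from -0.619 to 0.0537; the lowest came without TgCRND8 mouse 4, again as without the 4 arrays. Among correlations whose shift is not given above, Gh with Cga was 0.525 without the 2 farthest arrays and 0.497 without the 4, Gh with Pomc 0.810 and 0.620, Pomc with Cga 0.704 and 0.302, and Cga with Lhb 0.362 and 0.03.

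The labels do not say that mice of 1 number share a litter or day. Deviations from group means correlated above 0.1 in 35 of 60 same-number pairs of arrays (median 0.14), not in all of them, and in 43 of 180 pairs of different number (median -0.04), and 13 of 24 arrays were closest to one of their own number, a hint from the data and not from the design. With number as a replicate block, 0 of 6 hormone genes passed in each comparison, and counts over all genes were 31 (22 without it) for genotype at day 150, 7 (4) for control and 21 (16) for TgCRND8 mice at day 150 against day 70, and 3 (2) for the change in genotype difference. Over all genes, these 4 counts ranged from 12 to 35, from 0 to 8, from 1 to 27 and from 1 to 5 over the alternatives; the lowest were without the 4 arrays, except 0 in control mice, reached with only the arrays compared and with 1 array left out. With 1 array left out, up to 2 genes passed for genotype at day 80 and for TgCRND8 mice at day 80 against day 70, where 0 passed with all arrays. The cause was not tested. A signal near or below an array's lower quartile limits what can be seen of Prl, Cga, Tshb, Lhb and the dimmer Gh probe sets on most arrays.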
